A study of Homo sapiens with 6 samples.

Results

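Cohesin is a ring-shaped protein complex that holds sister chromatids together until cell division and folds the interphase genome by extruding loops of chromatin. SMC1A, SMC3 and RAD21 form the ring, and either STAG1 or STAG2 binds it. NIPBL loads the ring and drives extrusion, PDS5A and PDS5B bind it and control its release and acetylation, WAPL opens it, and the DNA-binding protein CTCF stops it at loop boundaries. STAG2 is encoded on chromosome X and is recurrently inactivated in Ewing sarcoma, the bone and soft tissue tumour from which the TC-71 cell line comes.

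The 10 genes described here are the rows of the deposited gene count table named STAG1, STAG2, SMC1A, SMC3, RAD21, PDS5A, PDS5B, WAPL, NIPBL and CTCF, out of 60662 rows. They were measured in 6 stranded mRNA libraries of untreated TC-71 cells, 3 wildtype and 3 in which the labels give an XG knockout. XG, also on chromosome X, encodes a cell-surface glycoprotein that carries a blood group antigen. Whether the knockout line was derived as a clone or kept as a pool is not in the labels. Nor do they call the replicates separate cultures, so the spread behind each p-value is that of these 6 libraries and may be technical.

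Totals ranged from 22557187 to 31214099 counts per library, and 14425 genes were tested with edgeR's quasi-likelihood test. XG stood at 44.4 to 47.1 CPM (fragment counts scaled to library size) in wildtype and 28.9 to 30.0 CPM in knockout libraries, 64.8% of wildtype (log2 fold change -0.63, SE 0.0478, edgeR adjusted p = 1.65e-06). Of 10 Ewing sarcoma marker genes all had counts, CCK at 11 to 25 counts a library, and they summed to 2737 to 2790 CPM in wildtype and 2659 to 2676 CPM in knockout libraries. CD99, the cell-surface marker of this tumour, was called lower (log2 fold change -0.12, edgeR adjusted p = 0.0302). In contrast, 6 blood and 4 endothelial markers summed to at most 0.362 CPM. The 6 fibroblast markers, of which COL1A2 and PDGFRA had at most 3 and 2 counts in a library, summed to 73.4 to 78.9 CPM in wildtype and 68.6 to 77.5 CPM in knockout libraries. The 5 epithelial markers, mostly KRT8 and KRT18 with KRT19 and CDH1 at 0 to 2 counts a library, summed to 5.14 to 5.72 CPM in wildtype and 7.01 to 7.59 CPM in knockout libraries. KRT18 was called higher (log2 fold change 0.68, edgeR adjusted p = 0.0302), and the part of these markers in the results was not tested. Knockout replicate 3 stood apart from the other knockout libraries. Its gene counts differed from those of the wildtype libraries by a chi-square of 2.16 to 2.39 per gene, and from those of knockout replicates 1 and 2 by 4.76 and 4.36. In knockout replicates 1 and 2, genes with a GC content above 55% lay a median 0.12 and 0.10 below the wildtype mean on the log2 scale, while knockout replicate 3 differed by 0.0079. Results are therefore given with and without knockout replicate 3 and with a correction for GC content.

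The sequences upstream of start sites were examined next. The sequences used were those at 12 RefSeq (GRCh38.p14) start sites of 9 of the 10 genes. None was used for RAD21, so its upstream sequence was not examined. The 250 bases upstream are shown for the first start of the paralog pairs STAG1 and STAG2, and PDS5A and PDS5B, whose levels are compared below, with CG dinucleotides in capitals. They lie at chr3:136752379-136752628 (minus strand) for STAG1, chrX:123960310-123960559 (plus strand) for STAG2, chr4:39977912-39978161 (minus strand) for PDS5A and chr13:32586202-32586451 (plus strand) for PDS5B.
STAG1: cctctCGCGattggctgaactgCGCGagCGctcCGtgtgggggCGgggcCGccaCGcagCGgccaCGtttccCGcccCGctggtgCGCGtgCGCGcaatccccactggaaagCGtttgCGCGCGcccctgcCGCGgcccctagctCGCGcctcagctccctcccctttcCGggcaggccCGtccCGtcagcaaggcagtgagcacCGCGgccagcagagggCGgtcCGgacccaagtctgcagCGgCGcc
STAG2: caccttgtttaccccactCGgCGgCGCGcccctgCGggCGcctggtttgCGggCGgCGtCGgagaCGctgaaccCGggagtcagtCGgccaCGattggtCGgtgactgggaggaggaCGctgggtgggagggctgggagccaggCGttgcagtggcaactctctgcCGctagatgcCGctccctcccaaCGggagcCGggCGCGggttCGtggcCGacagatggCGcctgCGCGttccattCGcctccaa
PDS5A: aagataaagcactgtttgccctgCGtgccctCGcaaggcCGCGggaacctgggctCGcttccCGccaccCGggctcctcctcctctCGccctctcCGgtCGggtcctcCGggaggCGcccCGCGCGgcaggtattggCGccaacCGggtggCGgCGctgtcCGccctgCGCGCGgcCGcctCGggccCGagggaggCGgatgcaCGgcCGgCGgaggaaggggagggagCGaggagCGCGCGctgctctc
PDS5B: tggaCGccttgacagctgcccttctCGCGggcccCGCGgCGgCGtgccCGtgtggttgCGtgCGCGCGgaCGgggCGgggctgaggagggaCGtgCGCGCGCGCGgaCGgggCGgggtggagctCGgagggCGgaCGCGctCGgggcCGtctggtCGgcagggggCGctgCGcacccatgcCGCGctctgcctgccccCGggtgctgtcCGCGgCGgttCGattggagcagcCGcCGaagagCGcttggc
These stretches held 34, 29, 34 and 41 CG dinucleotides, and the 12 windows of the 9 genes held 13 to 41, all above the median of 11 over 35116 windows in the RefSeq table. The letters TATAAA, searched on both strands, occurred in 0 of the 12 windows, in 10.7% of all windows and in 3.45% of those at or above the median CG count, where all 12 lie. The letters CCCTC, after which CTCF is named, occurred on either strand in 9 of 12 windows, in 66.6% of all windows and in 78.9% of those at or above the median CG count. STAG2 and SMC1A each had more than 1 RefSeq start, and the counts, summed over exons, do not tell these apart.

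XG knockout and wildtype libraries were compared for each gene. None of the 10 genes passed the edgeR test at an adjusted p of 0.05, against 1.36% of all genes tested (0.444% higher and 0.915% lower in knockout), and 1 of 10 had an unadjusted p under 0.05, against 16.8%. DESeq2 also called 0 of the 10, against 202 of the 27252 genes with a count in any library, with 0 of the 10 at an unadjusted p under 0.05. Those 27252 genes were not filtered for low counts as the genes tested by edgeR were, so the shares of genes called have unlike bases. By limma voom 0 of the 10 were called, against 217 of 14425 genes, with 1 of the 10 at an unadjusted p under 0.05. The share of all genes under that unadjusted p was not counted for these 2 methods. Log2 fold changes ranged from -0.028 (SMC1A) to 0.085 (PDS5B), and the 95% intervals together spanned 94.4% to 112.1% of wildtype. Fold changes were positive in 8 of 10 genes with a median of 0.020, against 50.9% positive and a median of 0.0019 over all genes tested. The transcripts of the 10 genes have a GC content of 36.5% to 47.2%, and the 6119 tested genes in that range had 67.4% positive values and a median of 0.032. With the GC correction 0 of the 10 passed, against 2.35% of all genes, 3 of the 10 were positive with a median of -0.015, against 50.4% positive and a median of 0.00091 over all genes. Without knockout replicate 3, 9 of the 10 were positive with a median of 0.041, against 51.9% and 0.0054 over all genes. In that setting 1 of the 10 passed, against 12.7% of all genes. With the GC correction and without knockout replicate 3, 3 of the 10 were positive with a median of -0.017, against 51.9% and 0.0037. Knockout and wildtype libraries did not overlap in 2 of the 10 genes, WAPL and CTCF, against 20.5% of all genes. In bulk RNA, a change in the share of cells that express a gene and a change in RNA per cell cannot be told apart.

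**Figure D1:**
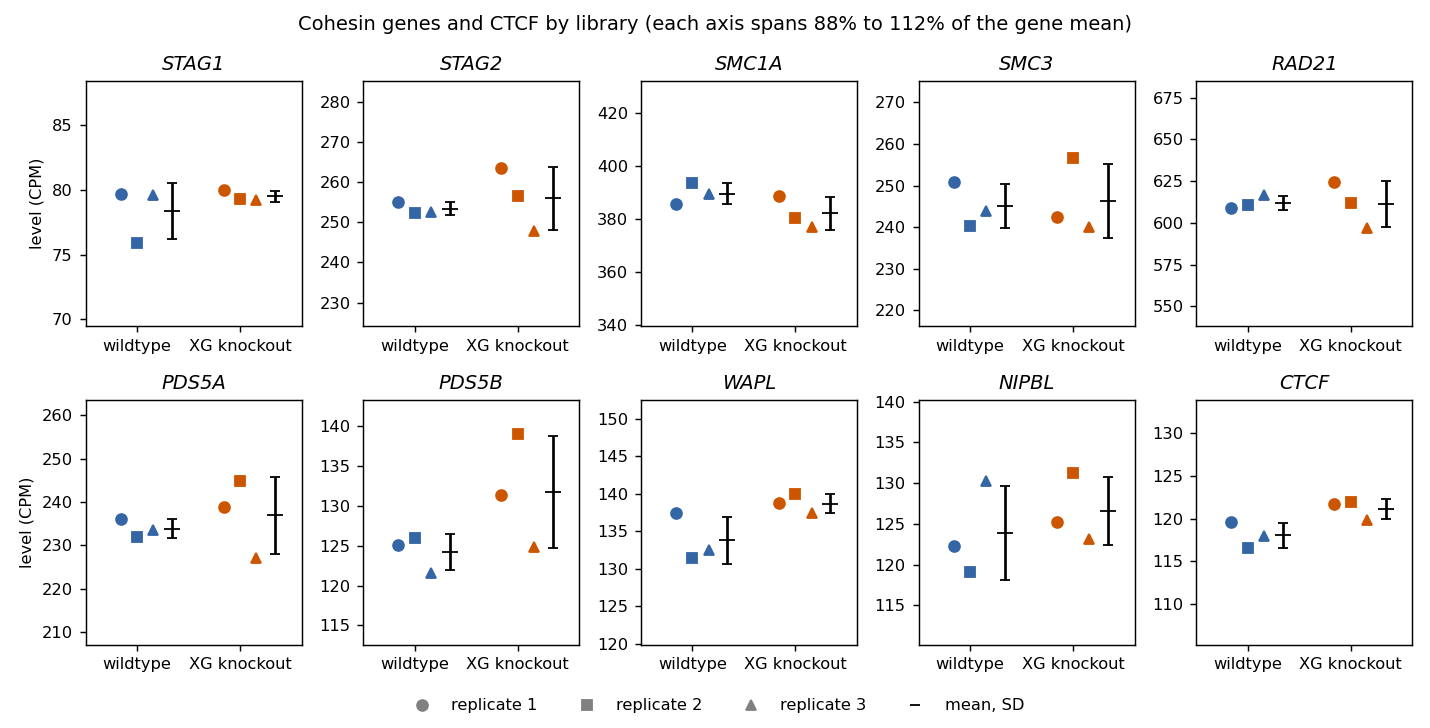
Level of each gene in CPM in each of the 6 libraries, with the symbol giving the replicate and the bar the mean and SD of 3 libraries. Groups overlapped in 8 of 10 genes, and PDS5B was highest in knockout replicate 2 at 139 CPM.

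STAG2 (ENSG00000101972.18, chromosome X, 123960212 to 124422664, plus strand, GRCh38), the main STAG subunit of somatic cells, measured 255, 252 and 253 CPM over wildtype replicates 1, 2 and 3, against 264, 257 and 248 CPM over knockout replicates 1, 2 and 3. The knockout libraries lay on both sides of the wildtype libraries, replicate 3 being the lowest of all 6. The wildtype mean was 253 ± 1.58 CPM and the knockout mean 256 ± 7.81 CPM (SD, n = 3 each), a log2 change of 0.015 with an SE of 0.0292 (adjusted p = 0.846 by edgeR). The 95% interval ran from 96.8% to 105% of wildtype. With the GC correction the STAG2 log2 fold change was -0.031 (SE 0.0233), and without knockout replicate 3 it was 0.037 (SE 0.0273), neither past the test.

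STAG1 (ENSG00000118007.13, chromosome 3, 136336236 to 136752403, minus strand), the alternative subunit, which can keep cohesin working in cells that lack STAG2, measured 79.7, 75.9 and 79.6 CPM over wildtype replicates 1, 2 and 3, against 80.03, 79.3 and 79.2 CPM over knockout replicates 1, 2 and 3. It had a log2 change of 0.021 with an SE of 0.0365 (adjusted p = 0.825 by edgeR), and the groups overlapped. Per exon length STAG2 exceeded STAG1 in every library. The STAG2 to STAG1 ratio of FPKM (CPM divided by exon length in kilobases) was 3.07, 3.18 and 3.04 in wildtype replicates 1, 2 and 3 and 3.15, 3.10 and 2.999 in knockout replicates 1, 2 and 3. STAG2 thus made up 75.6% ± 0.453 (SD, n = 3) of the STAG total in wildtype and 75.5% ± 0.475 (SD, n = 3) in knockout cells. The difference in the log2 ratio was -0.0063 (exact two-sided permutation test, p = 0.9; the smallest p for 3 against 3 libraries is 0.1). Antisense exons of PCCB cover 1661 of 7843 exon bases of STAG1, and counting was strand-specific.

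Per exon length the ring subunits had the highest levels of the 10 genes. RAD21 (ENSG00000164754.15, chromosome 8, 116845934 to 116874776, minus strand), the kleisin that separase cleaves at anaphase, measured 609, 611 and 617 CPM over wildtype replicates 1, 2 and 3, against 625, 612 and 597 CPM over knockout replicates 1, 2 and 3, a log2 change of -0.0018 with an SE of 0.0256 (adjusted p = 0.983 by edgeR). Its wildtype values lay within the range of the knockout values. The RAD21 interval was 96.2% to 104% of wildtype, the narrowest of the 10 by SE. With the GC correction its log2 fold change was -0.037 (edgeR adjusted p = 0.438).

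SMC1A (ENSG00000072501.18, chromosome X, 53374149 to 53422728, minus strand), an ATPase subunit encoded on the X chromosome like STAG2, measured 386, 394 and 390 CPM over wildtype replicates 1, 2 and 3, against 389, 381 and 377 CPM over knockout replicates 1, 2 and 3. Knockout replicate 1 lay among the wildtype values and the other knockout libraries below them. SMC1A had the lowest fold change of the 10, a log2 change of -0.028 with an SE of 0.0261 (adjusted p = 0.645 by edgeR), with an interval of 94.4% to 102% of wildtype. SMC3 (ENSG00000108055.9, chromosome 10, 110567691 to 110604636, plus strand), its ATPase partner and the subunit that ESCO enzymes acetylate, had a log2 change of 0.0079 with an SE of 0.0315 (adjusted p = 0.927 by edgeR). SMC3 levels overlapped between groups, at 240 to 251 CPM in wildtype and 240 to 257 CPM in knockout libraries. Of the 50-base words in its longest GENCODE 29 transcript, 8.24% also occur in a transcript of another gene, so some SMC3 fragments may not have been counted. The same share was 2.78% for RAD21, 1.26% for CTCF and 0% for the other 7 genes.

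Neither ratio within the ring passed an exact test, which cannot go below 0.1 with 3 against 3 libraries. The SMC1A to SMC3 ratio of FPKM was 0.649 ± 0.0207 in wildtype and 0.633 ± 0.0254 in knockout cells (SD, n = 3; exact permutation p = 0.6). The SMC1A to RAD21 ratio was 0.369, 0.375 and 0.368 in wildtype replicates 1, 2 and 3 and 0.362, 0.362 and 0.367 in knockout replicates 1, 2 and 3. These values did not overlap, with a difference of -0.026 on the log2 scale (exact permutation p = 0.1, the smallest possible; 0.25 after Benjamini-Hochberg adjustment over 5 ratios). SMC1A has the highest GC content of the 10 genes at 47.2%, against 40.7% for RAD21, and with the GC correction the difference was -0.0013 (exact permutation p = 0.8).

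PDS5B (ENSG00000083642.19, chromosome 13, 32586452 to 32778019, plus strand), a cohesin regulator needed for cohesion at centromeres, had the largest fold change of the 10. PDS5B measured 125, 126 and 122 CPM over wildtype replicates 1, 2 and 3, against 131, 139 and 125 CPM over knockout replicates 1, 2 and 3. Knockout replicates 1 and 2 lay above all wildtype libraries and knockout replicate 3 among them. The wildtype mean was 124 ± 2.31 CPM and the knockout mean 132 ± 7.05 CPM (SD, n = 3 each), a log2 change of 0.085 with an SE of 0.0378 (adjusted p = 0.266 by edgeR). The interval of 100.4% to 112.1% of wildtype is not adjusted for the number of genes tested. Without knockout replicate 3, a setting in which 12.7% of all genes passed, PDS5B passed too, at a log2 change of 0.12 with an SE of 0.0323 (adjusted p = 0.00667 by edgeR). Without knockout replicate 2, the library with the highest PDS5B level, the log2 change was 0.040 with an SE of 0.0377 (adjusted p = 0.733 by edgeR). The PDS5B transcript has the lowest GC content of the 10, 36.5%. With the GC correction its log2 fold change was 0.040 (edgeR adjusted p = 0.586), and with the correction and without knockout replicate 3 it was 0.057 (edgeR adjusted p = 0.433).

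PDS5A (ENSG00000121892.15, chromosome 4, 39822863 to 39977956, minus strand), the paralog, ranged from 232 to 236 CPM in wildtype and from 227 to 245 CPM in knockout libraries. Its fold change was small, a log2 change of 0.019 with an SE of 0.031 (adjusted p = 0.812 by edgeR). The PDS5A to PDS5B ratio of FPKM was 2.04, 1.99 and 2.08 in wildtype replicates 1, 2 and 3 and 1.96, 1.90 and 1.97 in knockout replicates 1, 2 and 3. All knockout ratios lay below all wildtype ratios, by 0.066 on the log2 scale (exact permutation p = 0.1, the smallest possible; 0.25 adjusted over 5 ratios). With the GC correction the difference was -0.054 (exact permutation p = 0.2).

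**Figure D2:**
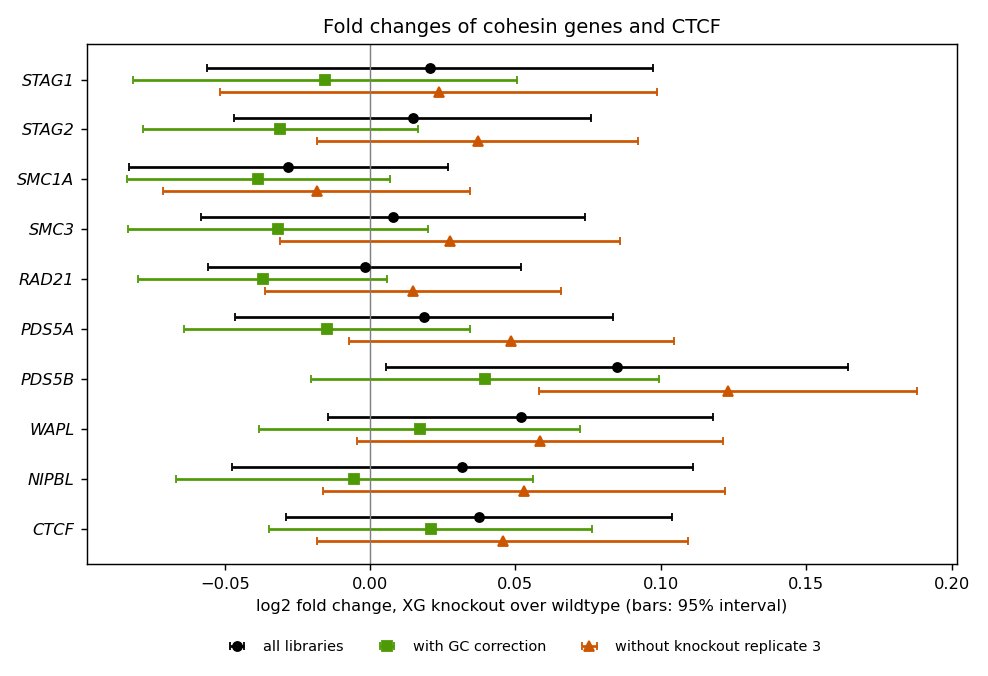
Log2 fold change of each gene with its 95% interval, for all libraries, with the GC correction and without knockout replicate 3. The interval for all libraries excludes 0 for PDS5B alone, before adjustment over the genes tested, and the GC correction moved every gene to a lower value.

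WAPL (ENSG00000062650.19, chromosome 10, 86435256 to 86521792, minus strand), which releases cohesin from chromatin, measured 137, 131 and 132 CPM over wildtype replicates 1, 2 and 3, against 139, 140 and 137 CPM over knockout replicates 1, 2 and 3. The highest wildtype and lowest knockout library were 137 CPM each when rounded, so the groups separated only narrowly. WAPL had a log2 change of 0.052 with an SE of 0.0316 (adjusted p = 0.44 by edgeR). It was 0.017 with the GC correction, and 0.0074 with the correction and without knockout replicate 3. NIPBL (ENSG00000164190.19, chromosome 5, 36876769 to 37066413, plus strand), the loader, ranged from 119 to 130 CPM in wildtype and from 123 to 131 CPM in knockout libraries, a log2 change of 0.032 with an SE of 0.0377 (adjusted p = 0.73 by edgeR). The NIPBL value was 0.0011 without knockout replicate 2 and 0.065 without wildtype replicate 3. NIPBL had the widest spread among wildtype libraries, a coefficient of variation of 4.65% against 0.622% for STAG2. The NIPBL to WAPL ratio of FPKM, loader over releaser, was 0.533 ± 0.0287 in wildtype and 0.525 ± 0.0128 in knockout cells (SD, n = 3; exact permutation p = 0.8).

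CTCF (ENSG00000102974.16, chromosome 16, 67562467 to 67639177, plus strand) measured 119.6, 116.6 and 118.0 CPM over wildtype replicates 1, 2 and 3, against 121.8, 121.9 and 119.8 CPM over knockout replicates 1, 2 and 3. The groups did not overlap, by less than 1 CPM. CTCF had a log2 change of 0.037 with an SE of 0.0315 (adjusted p = 0.6 by edgeR), and 0.021 with the GC correction (edgeR adjusted p = 0.794). An antisense transcript annotated as AC009095.1 covers 1326 of 10106 exon bases of CTCF, and counting was strand-specific.

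STAG2, PDS5A and NIPBL lay above their wildtype mean in knockout replicates 1 and 2 and below it in knockout replicate 3. RAD21 differed from its wildtype mean by 0.029, 1.4e-05 and -0.035 on the log2 scale in knockout replicates 1, 2 and 3. SMC3 differed from its own by -0.015, 0.067 and -0.030 in the same libraries. STAG1, PDS5B, WAPL and CTCF lay above their wildtype mean in all 3 and SMC1A below its own in all 3. Relative to the wildtype mean, the median of the 10 genes was 0.030 and 0.056 higher in knockout replicates 1 and 2 and 0.019 lower in knockout replicate 3, on the log2 scale. Tested genes in the same GC range lay 0.049, 0.045 and 0.0016 above the wildtype mean in knockout replicates 1, 2 and 3. With knockout replicate 3 alone against wildtype, 4 of the 10 fold changes were positive and 0 passed the edgeR test, against 0.83% of all genes (smallest adjusted p = 0.577, SMC1A), in a fit whose spread comes from the wildtype libraries and is taken to hold for that library; 0 had an unadjusted p under 0.05.

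**Figure D3:**
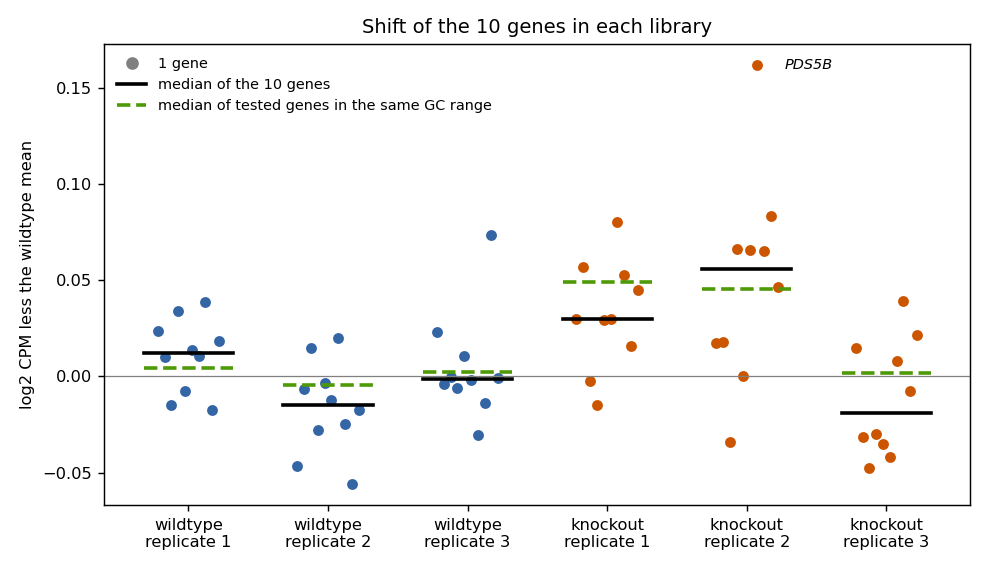
Log2 CPM of each of the 10 genes less its wildtype mean, by library, with the median of the 10 (solid) and of tested genes in the same GC range (dashed). The solid line is at 0.056 in knockout replicate 2 and at -0.019 in knockout replicate 3.

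Levels per length spread over 10.6-fold between the highest and the lowest gene. In wildtype cells RAD21 stood highest at 100.3 ± 0.669 FPKM, followed by SMC3 at 57.3 ± 1.25, SMC1A at 37.2 ± 0.386 and STAG2 at 30.9 ± 0.193 FPKM (SD, n = 3). PDS5A and WAPL followed at 19.2 ± 0.176 and 18.6 ± 0.440 FPKM, then CTCF at 11.7 ± 0.146 FPKM (SD, n = 3). STAG1, NIPBL and PDS5B were lowest, at 10.0 ± 0.278, 9.90 ± 0.461 and 9.42 ± 0.175 FPKM (SD, n = 3). PDS5A could not be ordered against WAPL, nor STAG1 against NIPBL or NIPBL against PDS5B, because their libraries overlapped in both groups. The group means fell in the same order in knockout cells, where none of these neighbours kept the same order in every library. With the length of the longest transcript in place of the union of exons, 3 genes kept their rank, among them RAD21 at 163 FPKM, and STAG2 at 41.9 FPKM stood above SMC1A at 39.2 FPKM.

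**Figure D4:**
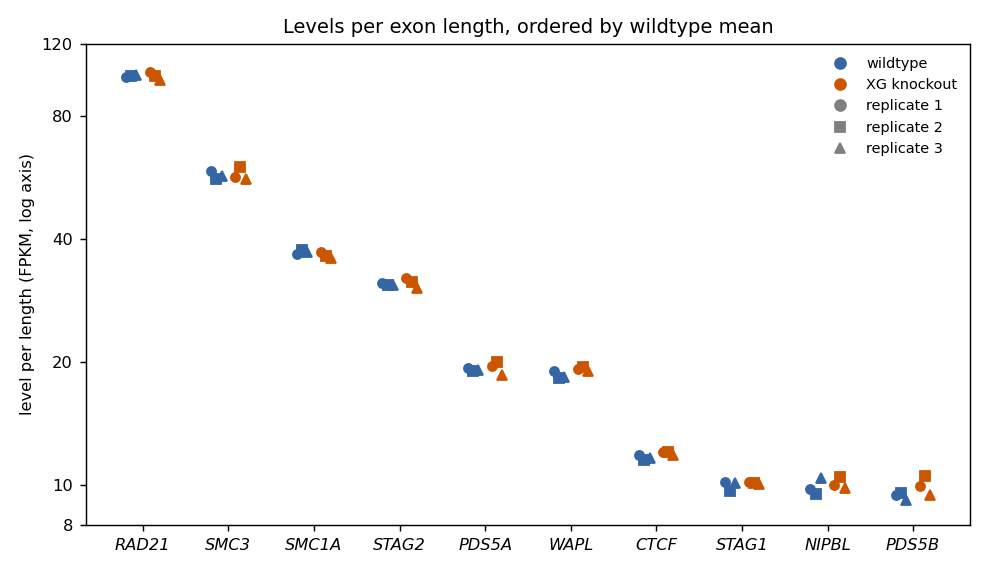
Level per exon length (FPKM, log axis) in each library, ordered by the wildtype mean. RAD21 is highest at about 100.3 FPKM, STAG2 lies about 3.10 times above STAG1, and knockout and wildtype symbols lie close together for every gene.

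Other genes of the pathway were examined as lists. Of 20 other cohesin subunits and regulators 19 were tested and 0 passed by edgeR, with 2 at an unadjusted p under 0.05 and a median log2 fold change of 0.010. Those were ESCO1, an SMC3 acetyltransferase, with a wildtype mean of 27.7 ± 0.972 CPM and a knockout mean of 31.5 ± 2.998 CPM (SD, n = 3 each; log2 fold change 0.18, edgeR adjusted p = 0.156), and NAA50, an acetyltransferase required for cohesion (log2 fold change 0.060, edgeR adjusted p = 0.295). Knockout replicates 1, 2 and 3 held 31.2, 34.6 and 28.6 CPM of ESCO1, the last below the highest wildtype library at 28.8 CPM. Of 12 genes that link cohesion to DNA replication 0 passed and 0 had an unadjusted p under 0.05, with a median of -0.019; CHTF18, of the clamp loader for cohesion, and RFC3 had the smallest p (log2 fold changes -0.18 and 0.062).

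Relatives of cohesin gave no call by edgeR. Of 8 condensin genes, which compact mitotic chromosomes, 0 passed and 2 had an unadjusted p under 0.05, with a median of -0.0052. NCAPH2, a condensin II subunit whose transcript is 62.2% GC, ranged over 102 to 110 CPM in wildtype libraries and measured 91.4, 91.8 and 104 CPM over knockout replicates 1, 2 and 3 (log2 fold change -0.15, edgeR adjusted p = 0.0993). NCAPG, of condensin I, had a log2 fold change of 0.070 (edgeR adjusted p = 0.275). Of 9 SMC5/6 genes, whose complex acts in DNA repair, 8 were tested and 0 passed, with 0 at an unadjusted p under 0.05 and a median of -0.020; NSMCE3 and NSMCE2 had the smallest p (log2 fold changes -0.085 and -0.064).

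Of 10 CTCF relatives and loop factors 0 passed by edgeR and 2 had an unadjusted p under 0.05, with a median log2 fold change of -0.023. MAZ, a zinc finger protein found at CTCF sites, had a log2 fold change of -0.10 (edgeR adjusted p = 0.114) at a GC content of 66.0%, and LDB1, a looping cofactor, one of -0.079 (edgeR adjusted p = 0.293). Of 17 genes at loci known to depend on CTCF or cohesin, namely H19, IGF2 and the protocadherin beta cluster, 7 were tested; 0 passed and 0 had an unadjusted p under 0.05. Their median was 0.10, with PCDHB5 at -0.19 and PCDHB12 at 0.40 on the log2 scale and SEs of 0.103 and 0.264. Of 12 proliferation genes 0 passed and 3 had an unadjusted p under 0.05, with a median of -0.012; the replicative helicase subunits MCM5 and MCM2 had log2 fold changes of -0.10 and -0.086 (edgeR adjusted p = 0.151 and 0.158) at GC contents of 57.0% and 58.1%. On chromosome X, which holds STAG2, SMC1A and XG, 1 of 518 tested genes was higher and 7, XG among them, were lower, with a median of -0.0084. Over all genes tested, 64 of 14425 (0.444%) were higher and 132 (0.915%) lower.

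The authors' deposited table gave the same signs as the counts for all 10 genes, read as knockout over wildtype, and an adjusted p under 0.05 for 0 of them. Its direction was itself read from the counts, and it rests on the same 6 libraries. The shared signs are therefore not separate support. In the authors' deposited table STAG2 had a log2 fold change of 0.013 (SE 0.0338, adjusted p = 0.904) and PDS5B of 0.084 (SE 0.0454, adjusted p = 0.375).

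The genes whose log2 CPM followed STAG2 most closely over the 6 libraries were AP1G1 and NCK1, with Pearson's r of 0.990 and 0.985. AP1G1, a clathrin adaptor subunit, measured 172, 169 and 171 CPM over wildtype replicates 1, 2 and 3, against 180, 173 and 165 CPM over knockout replicates 1, 2 and 3, highest and lowest in the same libraries as STAG2. Among the other members RAD21 came closest to STAG2, with r = 0.860, and NIPBL least close, with r = 0.236; these are descriptions over 6 libraries that share depth and GC shifts.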

How the data were processed

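Gene expression was measured in 6 TC-71 libraries, grouped and numbered by their titles. Libraries were stranded mRNA libraries, per the labels' protocols. The deposited fragment counts were made by the authors with STAR 2.7.6a on GRCh38 (per the submitters' processing notes) and featureCounts of Subread 2.0.1 on GENCODE 33 exons, paired-end and reverse-stranded, per the file headers. Fragments that map to several places were not counted, since the command sets no option for them. The authors also deposited log2 fold changes with SEs, a Wald score, p-values and a mean normalized signal per gene, from DESeq2 1.38.3 per the submitters' processing notes; the direction is not stated and was read from the counts.

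Genes were kept with edgeR's filterByExpr, leaving 14425. Counts were scaled by TMM and tested with edgeR 4.0.16 in R 4.3.3 (quasi-likelihood, two-sided, no covariates), with Benjamini-Hochberg adjustment over all genes and a threshold of 0.05. CPM used TMM-adjusted library sizes, and FPKM divided CPM by the table's exon length. SEs came from the fold change and F statistic, and 95% intervals from the same t distribution. No pair of libraries was alike within counting error (lowest chi-square per gene 1.46). Ratios of 2 genes were tested over libraries by an exact permutation test. The GC correction removed a lowess trend (span 0.5) of log2 CPM on the GC content of the longest GENCODE 29 transcript. Same-numbered libraries did not deviate together. Alternatives were other scalings and filters, DESeq2 1.42.0, limma 3.58.1 (voom), the replicate block, GC correction, a threshold of 0.01 and leaving out libraries; GC correction without knockout replicate 3 was added after seeing the data.

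The 10 genes and the lists were chosen with earlier results of these data known. All 10 are named; in each other list up to 4 called members, or the 2 with the smallest p, are named, and the 3 genes with the highest r with STAG2, of which 1 is not reported here. KRT18 and CD99 were the called members of the marker lists. On simulated data for XG knockout against wildtype (14425 genes, 50 changed at each size), the test found 10% of genes changed 1.1-fold and 58% of those changed 1.2-fold. For 1.5-fold and 2-fold changes it found 78% and 88%, and 6 of 123 calls were false. The changed genes were drawn from all with a mean of at least 10 counts. The 10 members had SEs of 0.0256 to 0.0378, against a median of 0.0636 over all genes tested. These shares therefore do not give the test's reach for the members.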

Additional observations from a re-analysis of the deposited data

How the results depend on the processing

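No member passed the edgeR test in any alternative run except PDS5B without knockout replicate 3, so the count of members called ranged from 0 to 1 when single libraries were left out. PDS5B, WAPL and CTCF were positive and SMC1A negative in every alternative run. The other 6 genes changed sign in some, none past the test. With the GC correction the log2 fold changes were -0.016 for STAG1, -0.031 for STAG2, -0.032 for SMC3, -0.015 for PDS5A and -0.0054 for NIPBL. With the replicate block and the GC correction they were -0.015, -0.030, -0.032, -0.015 and -0.0067, and with the GC correction and without knockout replicate 3 they were -0.030, -0.030, -0.031, -0.00030 and -0.0034. In the fit of knockout replicate 3 alone, STAG2, SMC3, PDS5A and NIPBL were at -0.031, -0.030, -0.042 and -0.0059. RAD21 was at 0.0080 with upper quartile scaling and 0.00040 with no filter. When single libraries were left out, STAG1 ranged from -0.0028 to 0.033, STAG2 from -0.0063 to 0.037, SMC3 from -0.026 to 0.027, RAD21 from -0.017 to 0.015 and PDS5A from -0.0093 to 0.049. With no sign change, NIPBL ranged from 0.0011 to 0.065, PDS5B from 0.040 to 0.12 and WAPL from 0.039 to 0.072. The log2 STAG2/STAG1 difference ranged from -0.023 to 0.014 and the log2 NIPBL/WAPL difference from -0.050 to 0.022. The cause of these sign changes was not tested. The number of genes called over the whole table, 196, ranged from 18 (without wildtype replicate 3) to 1851 (without knockout replicate 3) and was 647 with no filter, 339 with the GC correction, 125 with knockout replicate 3 alone, 386 with the GC correction and without knockout replicate 3, and 33 at a threshold of 0.01. Replicate numbers shared by the groups did not pair the libraries (correlations of deviations -0.046, -0.024 and -0.051), and with the replicate block 37 genes and 0 members passed. With longest-transcript lengths 3 of the 10 genes kept their rank in level. At this depth a member had at least 1790 counts a library.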
